A study of Mus musculus with 6 samples.

Results

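The 10 genes described here encode cyclins, cyclin-dependent kinases, kinase inhibitors and the retinoblastoma protein that act at the passage of a cell from G1 into S phase. They are CCND2, CCND3, CCNE1, CCNE2, CDK2, CDK4, CDK6, CDKN1B, CDKN1C and RB1, taken by identifier from a table of 62492 gene identifiers. The list was chosen with earlier results of these data known, so the choice is not independent of the values. Each identifier was present in exactly 1 row. RNA was sequenced from A375, an established human melanoma cell line with an activating BRAF mutation, 7 days after puromycin selection at 10 µg/mL. All 6 libraries came from cells transduced with lentivirus that carried Cas9 and a guide RNA. The guides were against YAE1 in 2 libraries, against ABCE1 in 2, and against LacZ or Luciferase, which these cells lack, in 2 controls. ABCE1 is an ATPase that separates ribosomal subunits after termination, and YAE1 acts as an adaptor, together with LTO1, for the delivery of an iron-sulfur cluster to ABCE1. The labels give the genotype as a knockout, but in the second library of each knockout group that field names Yae2 or Abce2, so groups were taken from the titles. The labels do not say whether cells were cloned, whether the 2 libraries of a group carried different guides, or whether they came from separate cultures, so the spread between them may be technical. The identifiers were not paired with gene names in the sources used here, apart from these 10. The targeted genes, melanoma markers and the other genes of the pathway were therefore not analysed here, and the labels were not checked against them.

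D-type cyclins (here CCND2 and CCND3) join the kinases CDK4 and CDK6 in G1, in response to growth signals, and begin to phosphorylate the retinoblastoma protein RB1. E-type cyclins (CCNE1 and CCNE2) join CDK2 and complete that phosphorylation, which releases E2F transcription factors from RB1. The CIP/KIP proteins p27 (CDKN1B) and p57 (CDKN1C) bind these complexes and restrain CDK2. E2F factors in turn activate CCNE1 and CCNE2, so both cyclins are regulators and products of S-phase entry.

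Values are FPKM, fragments scaled to the length of each gene model and to the total of the library. Levels can be set against each other between libraries as far as that scaling holds, and between genes as far as the gene model lengths hold. Summed FPKM was 266479 and 259523 with YAE1 guides, 251809 and 251572 with ABCE1 guides, and 252912 and 253604 in the controls. Library totals worked out from the table were 15713011 to 18399718 fragments. Across the log2 values of the genes tested, r lay at 0.992 to 0.994 between libraries of a group and at 0.942 to 0.98 between groups. In RNA from whole cultures, a different share of cells in a phase and a different amount of RNA per cell cannot be told apart.

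CCNE2 and CCND2 stood out among the 10 genes. CCNE2 fell to about 0.3 of its control level with both kinds of guide, and CCND2, close to undetected in the controls, was present in all 4 libraries with YAE1 or ABCE1 guides. Both knockouts were set against the same control libraries, so their changes against the controls are not independent. The mean FPKM of the other 8 genes lay between 23.5% below (CDK6 with YAE1 guides) and 23.5% above (CDKN1B with YAE1 guides) that of the controls. The libraries of each knockout lay wholly above or wholly below both controls for all 10 genes, while YAE1 and ABCE1 libraries overlapped each other for CCNE2 and CDK2. Lack of overlap with the controls was also found for 77.7% of all tested genes with YAE1 guides and 81.5% with ABCE1 guides, and 70.2% had no overlap between the knockouts, so it says little of these genes.

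**Figure D1:**
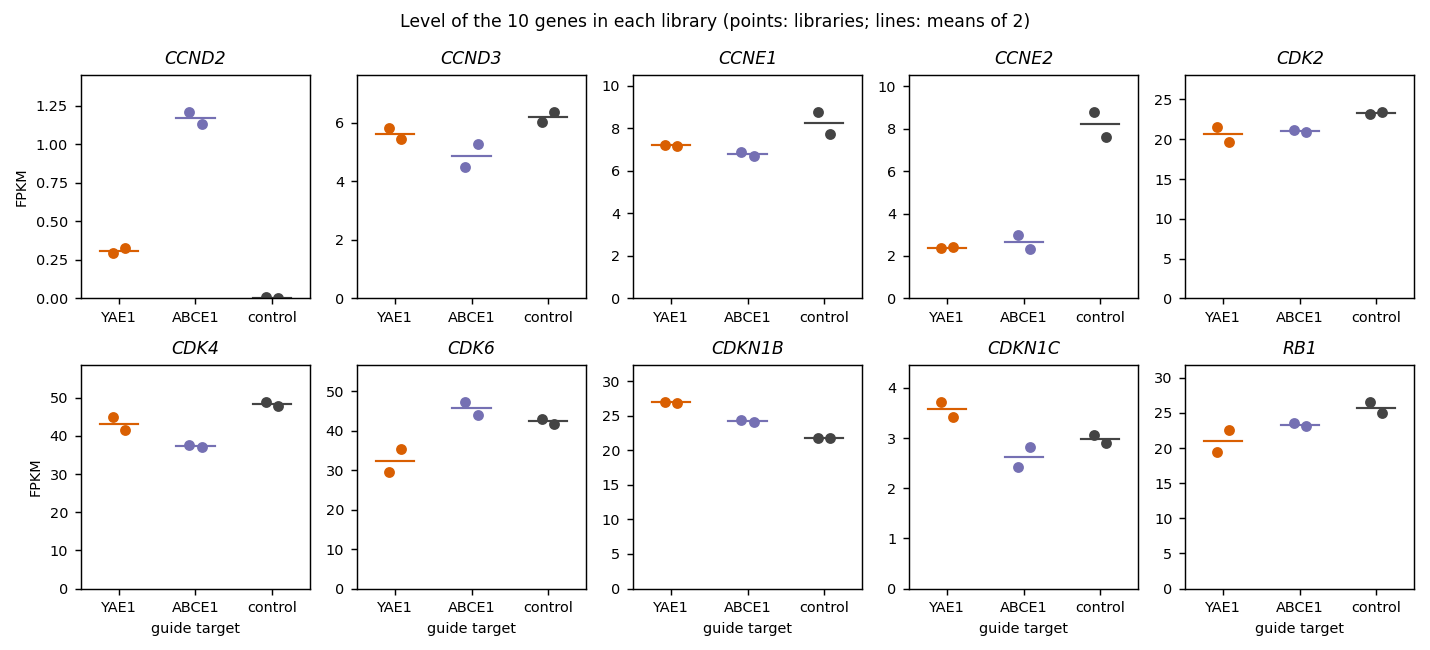
FPKM of each of the 10 genes (vertical axes, from 0) in the 6 libraries, grouped by guide target. Points are libraries and lines are means of 2; CCNE2 lies at 2.34 to 2.99 FPKM with YAE1 or ABCE1 guides, below both controls, and CCND2 lies near 0 in the controls only.

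Among the D cyclins, CCND2 (ENSG00000118971) had 0.294 and 0.327 FPKM with YAE1 guides, 1.21 and 1.13 FPKM with ABCE1 guides, and 0.00758 and 0 FPKM in the controls. The 3 groups did not overlap, and the ABCE1 libraries were the highest. In fragments this was 35.5 and 40 with YAE1 guides, 136.5 and 143.5 with ABCE1 guides, and 1 and 0 in the controls. The numbers came in steps of 0.5, and the counting rule behind these steps is not given in the sources used here. Per library total, the summed fragments were 80.3 times those of the controls with YAE1 guides, with a 95% interval of 13.9 to 3190 (exact, conditional on the summed fragments and covering counting error only). With ABCE1 guides the ratio was 302, with an interval of 53.8 to 11967. Such wide intervals come from the single control fragment.

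CCND2 had a mean of 0.495 FPKM over the 6 libraries and missed the filter of a mean of at least 1 FPKM, so limma did not test it with the 9 other genes. With no filter, its log2(FPKM + 1) was 0.38 ± 0.09 above the controls with YAE1 guides (SE, limma adjusted p = 0.0545) and 1.11 ± 0.09 above with ABCE1 guides (limma adjusted p = 0.00217). On this scale, which makes changes of low values smaller, the difference from the controls passed the test with ABCE1 guides and not with YAE1 guides. Between the knockouts both groups hold fragments. There CCND2 was lower with YAE1 guides, at 0.266 times the level with ABCE1 guides (interval 0.202 to 0.342, counting error only), and the no-filter difference of log2(FPKM + 1) was -0.73 ± 0.09 (limma adjusted p = 0.0267). A voom fit of the fragment numbers was added after seeing the data and run over all genes averaging 10 fragments or more. For YAE1 against ABCE1 guides it gave a log2 difference of -1.90 ± 0.22 (adjusted p = 8.46e-06). The same fit called CCND2 higher than the controls with both kinds of guide. The controls held a single fragment, so CCND2 entered that fit only through the YAE1 and ABCE1 libraries. These calls are therefore no further support for a difference from the controls.

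CCND3 (ENSG00000112576), a widely expressed D cyclin, had 5.81 and 5.43 FPKM with YAE1 guides, 4.47 and 5.27 FPKM with ABCE1 guides, and 6.04 and 6.37 FPKM in the controls. Every library with YAE1 or ABCE1 guides was below both controls. With ABCE1 guides CCND3 fell to 0.785 times the control mean (log2 change -0.30 ± 0.08, SE, limma adjusted p = 0.0183). With YAE1 guides it averaged 0.906 times the control mean and did not pass the test (log2 change -0.12, 95% interval -0.32 to 0.07, limma adjusted p = 0.244). The call with ABCE1 guides was lost without control replicate 1 (-0.33, limma adjusted p = 0.0509), without control replicate 2 (-0.27, limma adjusted p = 0.093) and without ABCE1 replicate 1 (-0.20, limma adjusted p = 0.0978).

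CCND3 was the more abundant of the pair in all 6 libraries. CCND2 made up 4.83% and 5.68% of their summed FPKM with YAE1 guides, 21.3% and 17.7% with ABCE1 guides, and 0.125% and 0% in the controls. The sum itself was 6.1 and 5.76 FPKM with YAE1 guides, 5.69 and 6.4 FPKM with ABCE1 guides, and 6.05 and 6.37 FPKM in the controls. The ranges of the summed level thus overlapped between all 3 groups. The sum covers CCND2 and CCND3 only, and the D cyclin CCND1 was not analysed here.

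The kinase partners of the D cyclins did not move alike. CDK4 (ENSG00000135446) had 44.9 and 41.6 FPKM with YAE1 guides, 37.6 and 37.1 FPKM with ABCE1 guides, and 48.9 and 47.9 FPKM in the controls. The controls were highest and the ABCE1 libraries lowest, with no overlap. With ABCE1 guides CDK4 fell to 0.772 times the control mean (log2 change -0.36 ± 0.05, SE, limma adjusted p = 0.000853), and the call held under all 16 alternatives tried. With YAE1 guides it fell to 0.893 times the control mean (log2 change -0.16 ± 0.05, limma adjusted p = 0.0302). That smaller change lost its call in 8 of 16 alternatives, among them those without control replicate 1 (-0.15, limma adjusted p = 0.145), control replicate 2 (-0.17, limma adjusted p = 0.0922), YAE1 replicate 2 (-0.11, limma adjusted p = 0.0788), and ABCE1 replicate 1 or 2 (limma adjusted p = 0.0563 in each).

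CDK6 (ENSG00000105810), the other kinase of the D cyclins, had 29.5 and 35.4 FPKM with YAE1 guides, 47.3 and 44 FPKM with ABCE1 guides, and 43.1 and 41.7 FPKM in the controls. Here the YAE1 libraries were the low ones, and the ABCE1 libraries were slightly above the controls. With YAE1 guides CDK6 fell to 0.765 times the control mean (log2 change -0.38 ± 0.08, SE, limma adjusted p = 0.00961). With ABCE1 guides it averaged 1.08 times the control mean and did not pass (log2 change 0.10, 95% interval -0.10 to 0.31, limma adjusted p = 0.329). The call with YAE1 guides was lost without control replicate 1 (-0.36, limma adjusted p = 0.0555), and the same fit to every gene above 0 gave limma adjusted p = 0.0612.

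A ratio of 2 genes within a library does not depend on how libraries are scaled to each other. The FPKM ratio of CDK6 to CDK4 was 0.658 and 0.849 with YAE1 guides, 1.26 and 1.19 with ABCE1 guides, and 0.882 and 0.87 in the controls. By FPKM, which rests on the gene model lengths, CDK6 was thus the more abundant of these transcripts in both ABCE1 libraries, and CDK4 in the other 4 libraries. Their summed level was 74.4 and 77 FPKM with YAE1 guides, 85 and 81.1 FPKM with ABCE1 guides, and 92 and 89.6 FPKM in the controls, with no overlap between the 3 groups.

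The E cyclins, near equal in the controls, separated with YAE1 and ABCE1 guides. CCNE2 (ENSG00000175305) had 2.39 and 2.4 FPKM with YAE1 guides, 2.99 and 2.34 FPKM with ABCE1 guides, and 8.79 and 7.62 FPKM in the controls. The knockout libraries overlapped each other and lay far below both controls. CCNE2 fell to 0.292 times the control mean with YAE1 guides (log2 change -1.44 ± 0.11, SE, limma adjusted p = 0.000125) and to 0.325 times with ABCE1 guides (-1.33 ± 0.11, limma adjusted p = 0.00011). Only 0.89% of tested genes had a change of at least that size with YAE1 guides, and 2.63% with ABCE1 guides. Both calls held under all 15 alternatives in which the gene was tested, with log2 changes of -1.77 to -1.35 with YAE1 guides and -1.64 to -1.20 with ABCE1 guides. The fragments behind these values were 176.5 and 180 with YAE1 guides, 206.5 and 182 with ABCE1 guides, and 711.5 and 590.5 in the controls, which puts the counting error of the lowest value at 7.53%.

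CCNE1 (ENSG00000105173) had 7.21 and 7.18 FPKM with YAE1 guides, 6.88 and 6.71 FPKM with ABCE1 guides, and 8.78 and 7.74 FPKM in the controls. Every library with YAE1 or ABCE1 guides was below both controls, but by far less than for CCNE2. With ABCE1 guides CCNE1 fell to 0.823 times the control mean (log2 change -0.25 ± 0.07, SE, limma adjusted p = 0.0186). With YAE1 guides it averaged 0.871 times the control mean and did not pass (log2 change -0.17, 95% interval -0.34 to -0.01 before adjustment, limma adjusted p = 0.0694). The call with ABCE1 guides was lost without control replicate 1 (limma adjusted p = 0.112), ABCE1 replicate 1 (limma adjusted p = 0.0606) or ABCE1 replicate 2 (limma adjusted p = 0.0861), and CCNE1 was called lower with YAE1 guides without control replicate 2 (limma adjusted p = 0.0368).

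Within a library, the ratio of CCNE2 to CCNE1 was 0.331 and 0.334 with YAE1 guides, 0.434 and 0.349 with ABCE1 guides, and 1 and 0.985 in the controls. CCNE2 therefore made up 24.9% and 25% of the summed cyclin E level with YAE1 guides and 30.3% and 25.9% with ABCE1 guides, against 50% and 49.6% in the controls. The summed level was 9.6 and 9.58 FPKM with YAE1 guides, 9.87 and 9.05 FPKM with ABCE1 guides, and 17.6 and 15.4 FPKM in the controls.

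**Figure D2:**
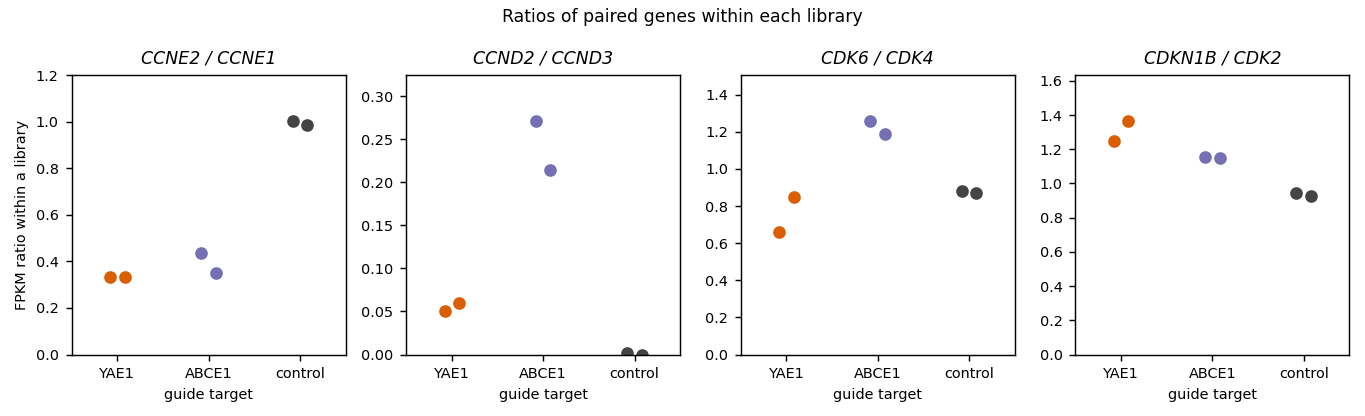
FPKM ratio of paired genes within each library (vertical axes, from 0), by guide target; points are libraries. The CCNE2 to CCNE1 ratio is 0.331 to 0.434 with YAE1 or ABCE1 guides and near 1 in the controls, and the CDK6 to CDK4 ratio is above 1 in the ABCE1 libraries only.

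CDK2 (ENSG00000123374), the kinase partner of cyclin E, had 21.6 and 19.7 FPKM with YAE1 guides, 21.1 and 21 FPKM with ABCE1 guides, and 23.2 and 23.4 FPKM in the controls. The knockout libraries overlapped each other and all lay below the controls. CDK2 fell to 0.886 times the control mean with YAE1 guides (log2 change -0.17 ± 0.05, SE, limma adjusted p = 0.0369) and averaged 0.903 times with ABCE1 guides, which did not pass (-0.14, 95% interval -0.27 to -0.01 before adjustment, limma adjusted p = 0.0619). These changes of similar size fell on either side of the threshold, and the direct comparison of the knockouts found a difference of -0.03 (interval -0.16 to 0.10, limma adjusted p = 0.713). The call with YAE1 guides was lost without control replicate 1, control replicate 2, ABCE1 replicate 1, ABCE1 replicate 2 or YAE1 replicate 2 (limma adjusted p = 0.119, 0.142, 0.065, 0.065 and 0.105), with a log2 change of -0.11 in the last of these, while CDK2 was called lower with ABCE1 guides without YAE1 replicate 1 or 2 (limma adjusted p = 0.0206 and 0.0204).

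The p27 gene CDKN1B (ENSG00000111276) was the only gene of the 9 tested to be called higher than in the controls. It had 27 and 26.9 FPKM with YAE1 guides, 24.4 and 24 FPKM with ABCE1 guides, and 21.8 and 21.8 FPKM in the controls. The 3 groups were ordered without overlap, with the YAE1 libraries highest. CDKN1B rose to 1.24 times the control mean with YAE1 guides (log2 change 0.29 ± 0.04, SE, limma adjusted p = 0.00143). This call held under all 16 alternatives, with log2 changes of 0.196 to 0.305. With ABCE1 guides it rose to 1.11 times the control mean (log2 change 0.15 ± 0.04, limma adjusted p = 0.0198). That call was lost without control replicate 1, control replicate 2, ABCE1 replicate 1 or ABCE1 replicate 2 (limma adjusted p = 0.0913, 0.0932, 0.103 and 0.0691), and the change was 0.01 after each library was centred on its median gene (limma adjusted p = 0.893).

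Set against the kinase that p27 restrains, CDKN1B stood higher in every knockout library. The FPKM ratio of CDKN1B to CDK2 was 1.25 and 1.36 with YAE1 guides, 1.15 and 1.15 with ABCE1 guides, and 0.942 and 0.929 in the controls. By FPKM, CDK2 was thus the more abundant of these transcripts in the controls and CDKN1B in the other 4 libraries. Which of them is more abundant rests on the gene model lengths, while the rise of the ratio does not depend on the scaling between libraries. The values are levels of RNA; p27 protein is also set by its turnover, which was not measured here.

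The p57 gene CDKN1C (ENSG00000129757) had 3.72 and 3.43 FPKM with YAE1 guides, 2.41 and 2.83 FPKM with ABCE1 guides, and 3.07 and 2.91 FPKM in the controls. The YAE1 libraries were above the controls and the ABCE1 libraries below them. Neither difference from the controls passed: the log2 change was 0.20 with YAE1 guides (95% interval -0.01 to 0.40, limma adjusted p = 0.0925) and -0.14 with ABCE1 guides (interval -0.34 to 0.06, limma adjusted p = 0.193). It had the fewest fragments of the 9 tested genes, 47 in the lowest library, with a counting error of 14.6%. CDKN1B was 7.26 and 7.83 times as abundant as CDKN1C with YAE1 guides, 10.1 and 8.5 times with ABCE1 guides, and 7.11 and 7.49 times in the controls.

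RB1 (ENSG00000139687), the substrate on which both kinase complexes act, had 19.4 and 22.6 FPKM with YAE1 guides, 23.6 and 23.1 FPKM with ABCE1 guides, and 26.5 and 24.9 FPKM in the controls. The controls were highest, and the YAE1 libraries lowest. RB1 fell to 0.815 times the control mean with YAE1 guides (log2 change -0.29 ± 0.07, SE, limma adjusted p = 0.0178). With ABCE1 guides it averaged 0.906 times the control mean and did not pass (log2 change -0.14, 95% interval -0.31 to 0.04, limma adjusted p = 0.162). The call with YAE1 guides was lost without control replicate 1 (-0.24, limma adjusted p = 0.102), and the log2 change was -0.18 without YAE1 replicate 1 (limma adjusted p = 0.0447) and -0.39 without YAE1 replicate 2. RB1 was called lower with ABCE1 guides without YAE1 replicate 1 or 2 (limma adjusted p = 0.0451 and 0.0459).

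Over the 9 tested genes, 1 was called higher with YAE1 guides (CDKN1B), 5 lower (CCNE2, CDK2, CDK4, CDK6 and RB1), and 3 did not pass. Of all 12578 tested genes 34.2% were called higher and 17.6% lower with YAE1 guides. With ABCE1 guides 1 was called higher (CDKN1B), 4 lower (CCND3, CCNE1, CCNE2 and CDK4), and 4 did not pass, where 37.5% of all tested genes were called higher and 20.4% lower. Called in either direction were thus 6 of 9 genes against 51.8% of all genes with YAE1 guides, and 5 of 9 against 57.9% with ABCE1 guides, so being called is common in these data. The median log2 change of the 9 genes was -0.168 with YAE1 guides, where the median of all tested genes was 0.096, and -0.142 with ABCE1 guides, where it was 0.098. Including CCND2 on the same scale, the medians were -0.164 and -0.141. With no filter, the calls against the controls were CDKN1B and CCNE2 with YAE1 guides, and CDKN1B, CCND2, CCNE2 and CDK4 with ABCE1 guides, where 13.3% and 18.4% of all genes tested were called. Leaving out a library of the comparison lowered the share of all genes called. With YAE1 guides 2 were called without control replicate 1 (36.1% of all genes), 5 without control replicate 2, 6 without YAE1 replicate 1 and 4 without YAE1 replicate 2 (39.3% to 47.8%). With ABCE1 guides 2 were called without control replicate 1 or ABCE1 replicate 1 and 3 without control replicate 2 or ABCE1 replicate 2 (45.2% to 47.2%), while 7 were called without YAE1 replicate 1 or 2 (60.1% and 60.0%).

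**Figure D3:**
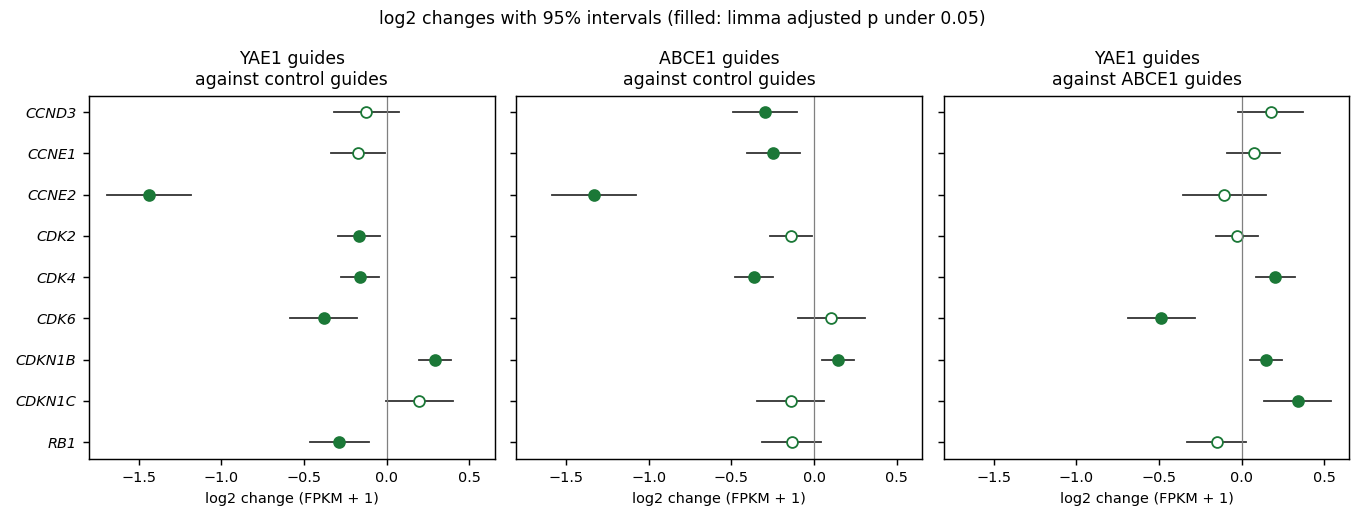
log2 change of FPKM + 1 for the 9 tested genes (horizontal axes), with YAE1 guides against controls, ABCE1 guides against controls, and YAE1 against ABCE1 guides; bars are 95% intervals from limma, unadjusted, and filled points have an adjusted p under 0.05. CCNE2 lies at -1.44 and -1.33 against the controls while every other point lies between -0.49 and 0.34.

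**Figure D4:**
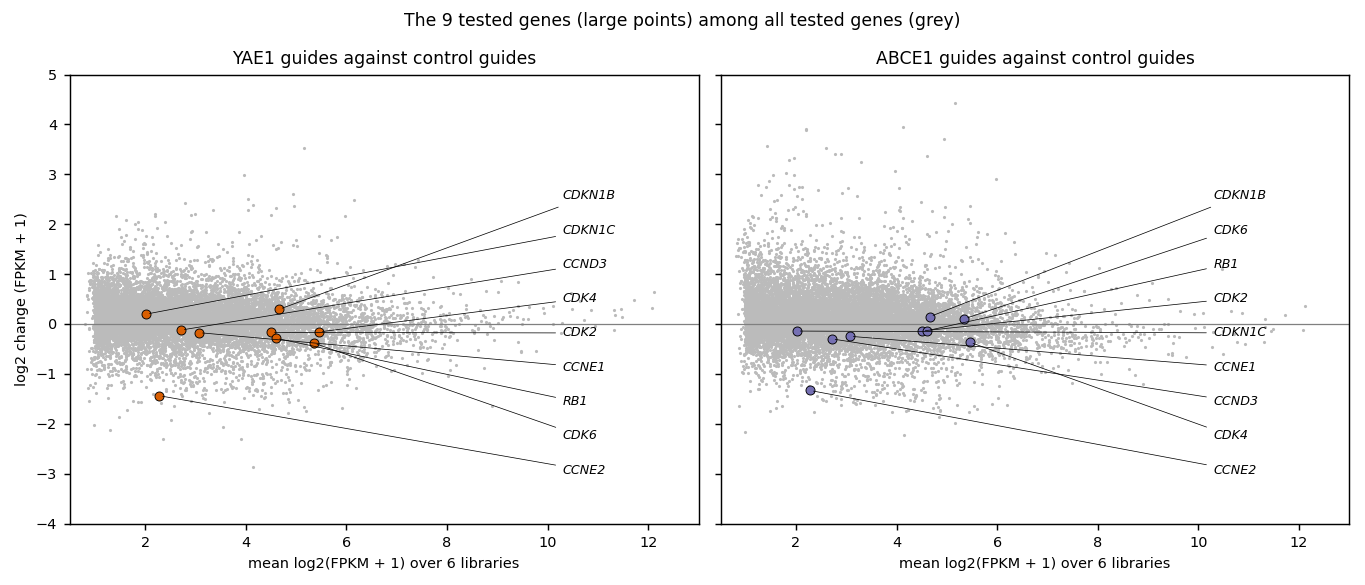
log2 change (vertical axes) against mean log2(FPKM + 1) over the 6 libraries (horizontal axes) for the 12578 tested genes, in grey, with the 9 genes as large points; left YAE1 guides, right ABCE1 guides, each against controls. CCNE2 lies near the lower edge of the cloud in both panels and the other 8 genes lie within its dense part.

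The comparison of the knockouts with each other asked where the response of these genes differed. With YAE1 guides CDK6 was lower than with ABCE1 guides (log2 difference -0.49 ± 0.08, SE, limma adjusted p = 0.00815), and CDK4 was higher (0.20 ± 0.05, limma adjusted p = 0.0201). Both kinase inhibitors were higher with YAE1 guides, CDKN1C by 0.34 ± 0.08 (limma adjusted p = 0.0241) and CDKN1B by 0.15 ± 0.04 (limma adjusted p = 0.0335). Of all tested genes 15.3% were called higher and 18.7% lower in this comparison, 34.0% in all, against 3 higher and 1 lower of these 9. The other 5 did not pass, and their intervals were -0.02 to 0.37 for CCND3, -0.09 to 0.23 for CCNE1, -0.36 to 0.15 for CCNE2, -0.16 to 0.10 for CDK2 and -0.33 to 0.03 for RB1.

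These 4 differences kept their direction under all alternatives, but their calls did not hold under several. With no filter, where 5.46% of all genes were called, they did not pass (limma adjusted p = 0.054 for CDK6, 0.0701 for CDK4, 0.0864 for CDKN1C and 0.054 for CDKN1B), and CDKN1C did not pass with voom on the fragment numbers (adjusted p = 0.0871). Without ABCE1 replicate 1, 14.4% of all genes and none of the 9 were called (limma; 4 had an unadjusted p under 0.05), with differences of similar size: CDK6 was at -0.44 (adjusted p = 0.0523), CDK4 at 0.22 (adjusted p = 0.0818), CDKN1C at 0.26 (adjusted p = 0.119) and CDKN1B at 0.16 (adjusted p = 0.114). The calls for CDK4 and CDKN1B were also lost without ABCE1 replicate 2 (limma adjusted p = 0.0995 and 0.148), that for CDKN1C without YAE1 replicate 1 (limma adjusted p = 0.0953), and that for CDKN1B without any other single library (limma adjusted p = 0.0542 to 0.0708) and in 12 of 16 alternatives in all. RB1 was called lower with YAE1 than with ABCE1 guides without YAE1 replicate 2 (-0.25, limma adjusted p = 0.025).

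The order of the levels among the 10 genes was similar in the 3 groups, with CDK4 and CDK6 at the top and CCND2 last. In the controls CDK4 was followed by CDK6, RB1, CDK2, CDKN1B, CCNE1, CCNE2, CCND3, CDKN1C and CCND2, and CCNE1 and CCNE2 overlapped. CDKN1B had rank 3 with YAE1 guides and with ABCE1 guides but rank 5 in the controls, where RB1 and CDK2 lay above it in both libraries. CCNE2 had rank 9 with YAE1 guides, below CDKN1C, and its range overlapped that of CDKN1C with ABCE1 guides, whereas it lay above CCND3 and CDKN1C in the controls. RB1 and CDK2 overlapped with YAE1 guides.

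More genes of the whole table were called higher than lower against the controls, and this excess depended on the scaling between libraries. On the authors' scale 66.0% of calls with YAE1 guides and 64.8% with ABCE1 guides were higher. After libraries were centred on their median gene the shares were 49.1% and 45.5%, and after quantile normalization 52.2% and 49.0%. The median change of all genes with ABCE1 guides was -0.040 after centring, against 0.098 before it. Between the knockouts 45.1% of calls were higher with YAE1 guides on the authors' scale and 56.0% after centring. For these genes, centring turned CDK6 with ABCE1 guides to -0.03 (limma adjusted p = 0.735) and added calls of lower level with ABCE1 guides for CDK2 (-0.28, limma adjusted p = 0.0061), RB1 (-0.27, limma adjusted p = 0.0155) and CDKN1C (-0.28, limma adjusted p = 0.0291). With YAE1 guides it added CCNE1 (-0.27, limma adjusted p = 0.0166). Centring also enlarged the decreases that it kept past the threshold. Among them, CCNE1 with ABCE1 guides went to -0.39 (-0.25 before). With YAE1 guides CDK2 went to -0.27 (-0.17 before) and CDK4 to -0.26 (-0.16 before). The increase of CDKN1B with YAE1 guides kept its call but shrank to 0.20 (0.29 before). Of the 11 calls against the controls, 10 held under all 3 scalings and the exception was CDKN1B with ABCE1 guides.

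**Figure D5:**
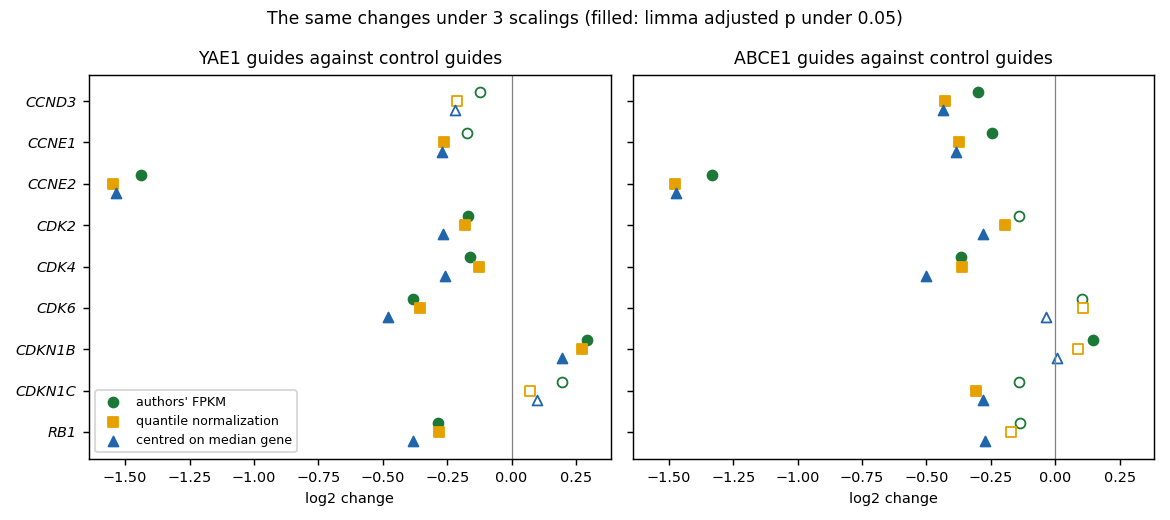
log2 change of the 9 tested genes (horizontal axes) with YAE1 guides (left) and ABCE1 guides (right) against controls, on the authors' FPKM scale, after quantile normalization and after centring each library on its median gene; filled symbols have a limma adjusted p under 0.05. CDKN1B with ABCE1 guides is called on the authors' scale but not on the other 2, and CDK6 with ABCE1 guides changes sign after centring.

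CCNE2 had the largest moderated F of the 9 genes over the 3 groups (116, against 28.7 for CDK4, the next). Across the 6 libraries, the tested genes outside the list that followed it most closely on the log2(FPKM + 1) scale were ENSG00000168496 and ENSG00000111788, each with r = 0.998. This is a description over 6 libraries that fall into 3 groups, and 628 of 12569 genes reached an r of at least 0.95 with CCNE2.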

How the data were processed

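RNA-seq libraries of A375 cells (1 µg of RNA, read as 150 bp pairs) were compared between YAE1, ABCE1 and control guides, 2 per group, with groups taken from the titles. The authors deposited FPKM values per gene; GRCh37 is named in the submitters' processing notes. Not given in the sources used here were the aligner, the counter and the annotation. The organism field reads mouse, but the cell line and identifiers are human. The 10 gene names came with the list of identifiers. Of the 62492 identifiers none matched the mouse reference tables used here, so 6 planned pathway lists, cell type markers, targeted genes and genome positions were not analysed here. No sequences are shown for the same reason.

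The 12578 genes averaging 1 FPKM or more entered limma 3.58.1 (R 4.3.3) as log2(FPKM + 1), with group means as coefficients and the 6 libraries fitted together (3 residual degrees of freedom, 3.62 added by moderation), eBayes with trend, Benjamini-Hochberg adjustment over all genes, threshold 0.05. The added 1 FPKM makes the fold change of low genes smaller on this scale. An exact permutation of 2 against 2 libraries cannot reach the threshold and was not used. Fragment numbers were worked out from the steps of the FPKM values, which were multiples of 0.5 fragments (tolerance 0.0001) for 38264 of 38269 genes above 0, holding at least 99.4% of each total. They are known up to a whole factor shared by the 6 libraries of a gene. Counting errors and intervals cover counting only. Both steps were tested on simulated data. All 10 members are named whatever their values. The members and lists were chosen with earlier results of these data known.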

Additional observations from a re-analysis of the deposited data

Results flagged for a closer look

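The change against the controls differed between YAE1 and ABCE1 guides for 4 of the 9 tested genes, by the test of the difference itself, where 34.0% of all tested genes differed. The log2 change with YAE1 guides minus that with ABCE1 guides was -0.49 for CDK6 (limma adjusted p = 0.00815), 0.20 for CDK4 (limma adjusted p = 0.0201), 0.34 for CDKN1C (limma adjusted p = 0.0241) and 0.15 for CDKN1B (limma adjusted p = 0.0335). With no filter these 4 did not pass (limma adjusted p = 0.054, 0.0701, 0.0864 and 0.054). The call for CDKN1B was lost in 12 of 16 alternatives. Without ABCE1 replicate 1 the differences were of similar size (-0.44, 0.22, 0.26 and 0.16). CCND2, below the filter, differed by -0.73 on the same scale with no filter (limma adjusted p = 0.0267).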

How the results depend on the processing

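Of 27 comparisons of a tested gene, 8 kept their direction and their side of the threshold under every alternative run, among them CCNE2 against controls with both kinds of guide, CDK4 with ABCE1 guides and CDKN1B with YAE1 guides. The number of all genes called with ABCE1 guides was 4761 of 7047 tested (67.6%) with a mean of at least 5 FPKM. In the main fit it was 7278 of 12578 (57.9%). Between the knockouts it was 2091 with no filter, against 4279; the cause was not tested. Leaving out single libraries gave 1811 to 3721 calls between the knockouts, the lowest without ABCE1 replicate 1 and 1963 without ABCE1 replicate 2. Signs turned only for differences that had not passed: CDK6 with ABCE1 guides after centring (-0.034), and between the knockouts CCNE2 without single libraries (-0.233 to 0.023, above 0 without ABCE1 replicate 1) and CDK2 after centring (0.013), with quantile normalization (0.012) and without single libraries (-0.091 to 0.035, above 0 without YAE1 replicate 2). Replicate numbers did not pair the libraries (correlations of deviations -0.053 to -0.00926 over genes); with the replicate block 7058 genes were called with ABCE1 guides, 6264 with YAE1 guides and 3778 between the knockouts, and of these genes only CDKN1B between the knockouts lost its call (limma adjusted p = 0.0587). Depth limits CCND2, with 1 control fragment, and CDKN1C, with 47 to 77.5 fragments.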
